A study of Mus musculus with 9 samples.

Results

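Fibronectin and the matricellular glycoproteins tenascin C, thrombospondin 1, thrombospondin 2, periostin, SPARC and osteopontin were followed through their genes Fn1, Tnc, Thbs1, Thbs2, Postn, Sparc and Spp1. A gene was represented by the probe annotated to it alone with the highest mean over all arrays, and each measured gene had a single such probe. In this way 6 of the 7 genes were measured, out of 19933 genes in all. Spp1 had no probe annotated to it alone and was not analysed here. The 9 RNA samples were hybridised to Affymetrix mouse Gene 1.0 ST arrays and form 3 groups of 3 biological replicates. One group is of embryonic cardiomyocytes positive for Nkx-YFP, a fluorescent reporter that marks cells of the cardiac lineage, another of fibroblasts from the embryonic heart, and the last of fibroblasts from the adult heart. The series sought fibroblast factors that promote the proliferation of myocytes. Strain, embryonic stage, the age and sex of the adults, and the isolation or culture of the fibroblasts are not given in the labels.

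Fibronectin is a large dimeric glycoprotein that cells assemble into fibrils through integrins, and it serves as a scaffold for other matrix proteins. Matricellular proteins are secreted into the matrix but act mainly as modulators of adhesion, growth factor activity and matrix assembly, rather than as structural fibres. In the heart they are known for high expression during development and for renewed expression after injury, with fibroblasts as a main source.

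Values are RMA values, the background-corrected, normalized and summarized intensity of a transcript on the log2 scale, on which a difference of 1 is a doubling. They have no true zero, and differences of dim genes are compressed. Levels are compared within a gene only, since probes of different genes are not on a common scale. Differences were tested with limma and called at an adjusted p under 0.05 over all 19933 genes. The RNA came from whole preparations, so more cells of a type and more RNA per cell cannot be told apart.

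All 6 measured genes were higher in embryonic fibroblasts than in embryonic cardiomyocytes, where 10.3% of all genes were called higher. The differences ran from 1.26-fold for Sparc to 8.97-fold for Thbs1. Between the fibroblast groups the differences went in both directions: Fn1 and Tnc were higher in embryonic fibroblasts, Thbs2 was higher in adult ones, and Thbs1, Postn and Sparc were not called. Fn1 was the member that was lower in adult fibroblasts than in cardiomyocytes, whereas Tnc, Thbs1, Thbs2 and Postn were higher there.

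Promoter windows of RefSeq (GRCm38.p6), from 250 bases before to 50 after an annotated start, were matched by symbol for 4 of the 6 measured genes. The windows of Tnc, Thbs2 and Postn are shown because these genes were all at least 2.06-fold higher in embryonic fibroblasts than in cardiomyocytes. Fn1 (2.76-fold) and Thbs1 (8.97-fold) were as well, but no window was matched to them. Postn has separate starts and both are given, and of the overlapping windows of Tnc the one at the outer start is given. Capitals mark TATAAA, the letters of a TATA box, GGGCGG, a GC box, and CCAAT, each on either strand, so that a match on the other strand reads TTTATA or ATTGG.
Tnc, chr4:64046966-64047265, - strand: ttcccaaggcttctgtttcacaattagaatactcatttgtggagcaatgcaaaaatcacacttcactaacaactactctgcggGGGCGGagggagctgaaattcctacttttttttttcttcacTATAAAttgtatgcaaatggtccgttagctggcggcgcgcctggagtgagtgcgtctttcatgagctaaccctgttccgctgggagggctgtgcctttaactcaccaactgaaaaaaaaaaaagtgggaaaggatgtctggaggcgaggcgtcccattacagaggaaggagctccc
Thbs2, chr17:14694213-14694512, - strand: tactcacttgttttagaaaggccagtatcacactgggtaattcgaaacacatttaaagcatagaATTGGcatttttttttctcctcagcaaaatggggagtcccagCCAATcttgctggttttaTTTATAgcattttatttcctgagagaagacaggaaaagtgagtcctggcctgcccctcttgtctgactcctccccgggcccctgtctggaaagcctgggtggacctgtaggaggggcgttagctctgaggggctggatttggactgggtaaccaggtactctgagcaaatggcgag
Postn, chr3:54359017-54359316, + strand: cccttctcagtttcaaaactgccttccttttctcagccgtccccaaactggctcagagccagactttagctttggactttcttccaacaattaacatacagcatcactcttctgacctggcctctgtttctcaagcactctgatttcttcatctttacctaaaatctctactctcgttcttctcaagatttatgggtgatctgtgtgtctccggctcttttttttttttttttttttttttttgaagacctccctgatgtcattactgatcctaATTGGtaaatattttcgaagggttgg
Postn, chr3:54360857-54361156, + strand: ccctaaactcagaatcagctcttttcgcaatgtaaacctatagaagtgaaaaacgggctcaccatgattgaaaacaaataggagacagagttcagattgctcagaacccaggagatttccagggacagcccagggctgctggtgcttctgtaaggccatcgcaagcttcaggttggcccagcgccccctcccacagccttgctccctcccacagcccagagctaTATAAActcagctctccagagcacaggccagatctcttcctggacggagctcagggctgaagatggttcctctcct

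TATAAA was found in the windows of Tnc and Thbs2 and in the second window of Postn, where its first base lies 26 bases before the annotated start. Of the 32817 windows in the table, 13.6% hold these letters. CCAAT was found in the window of Thbs2 and in the first of Postn, against 37.4% of windows, and GGGCGG in that of Tnc, against 35.6%. The AP-1 letters TGACTCA, present in 5.20% of windows, and the CArG box, present in 1.63%, were found in none of the windows of these 3 genes. The window of Sparc held none of the 5 motifs. These matches describe letters in the windows only.

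Fn1 encodes fibronectin itself. Its values were 11.28, 11.03 and 11.02 in cardiomyocytes, 12.64, 12.74 and 12.35 in embryonic fibroblasts, and 10.31, 10.37 and 10.33 in adult fibroblasts, for replicates 1 to 3. No groups overlapped: embryonic fibroblasts were high on each array, cardiomyocytes lay in the middle, and the adult fibroblasts were low and close to each other (SD 0.03, n = 3). The level in embryonic fibroblasts was 4.73-fold that in adult ones (log2 difference 2.24 ± 0.11, SE, n = 3 per group, limma adjusted p = 2.49e-06). It was also 2.76-fold that in cardiomyocytes (1.47 ± 0.11, adjusted p = 7.27e-05). Adult fibroblasts stood 1.71-fold below cardiomyocytes (-0.78 ± 0.11, adjusted p = 0.000522). In size, the difference between the fibroblast groups ranked 208 among the 19933 genes.

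Thbs1 encodes thrombospondin 1, a trimeric glycoprotein known for inhibiting angiogenesis and for activating latent TGF-beta. It stood at 9.43, 9.31 and 9.24 in cardiomyocytes, 12.61, 12.64 and 12.23 in embryonic fibroblasts, and 12.86, 12.49 and 12.15 in adult fibroblasts. Both fibroblast groups were high and overlapped each other, with every array well above the cardiomyocytes. The difference from cardiomyocytes was 8.97-fold in embryonic fibroblasts (3.16 ± 0.18, adjusted p = 2.37e-05) and 9.0-fold in adult ones (3.17 ± 0.18, adjusted p = 1.26e-06). These comparisons share the cardiomyocyte arrays. By size Thbs1 ranked 7 of all genes in the former and 226 in the latter, where more genes differed. Between the fibroblast groups the difference was -0.01, with a 95% interval from -0.40 to 0.39 (adjusted p = 0.986). Its sign turned without embryonic fibroblast replicate 3 (0.13) or adult fibroblast replicate 1 (0.17).

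Thbs2 encodes the closely related thrombospondin 2, which also inhibits angiogenesis and is known for its part in collagen fibril assembly. Cardiomyocytes gave 7.39, 7.54 and 7.68, embryonic fibroblasts 8.79, 8.35 and 8.60, and adult fibroblasts 9.49, 9.19 and 9.33. The groups did not overlap, and their order was cardiomyocytes, embryonic fibroblasts, adult fibroblasts. Adult fibroblasts were 3.49-fold above cardiomyocytes (1.80 ± 0.13, adjusted p = 5.62e-06) and embryonic fibroblasts 2.06-fold above them (1.04 ± 0.13, adjusted p = 0.000646). The step from embryonic to adult fibroblasts was 1.69-fold (embryonic minus adult -0.76 ± 0.13, adjusted p = 0.00301). Thus, between the fibroblast groups, Thbs2 was called and Thbs1 was not. Whether their differences are unequal was not tested.

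Tnc encodes tenascin C, a six-armed glycoprotein that modulates the adhesion of cells to fibronectin. Its values were 7.95, 7.69 and 8.0 in cardiomyocytes, 11.02, 11.19 and 10.27 in embryonic fibroblasts, and 9.89, 9.56 and 10.29 in adult fibroblasts. The fibroblast groups touched, since embryonic replicate 3 was just below adult replicate 3, and the cardiomyocytes lay apart from both. Tnc was 7.72-fold higher in embryonic fibroblasts than in cardiomyocytes (2.95 ± 0.25, adjusted p = 9.76e-05) and 4.10-fold higher in adult ones (2.03 ± 0.25, adjusted p = 0.00015). The 1.88-fold difference between the fibroblast groups passed the test by a small margin (0.91 ± 0.25, adjusted p = 0.0295). That call was lost without cardiomyocyte replicate 1 (adjusted p = 0.0518), embryonic fibroblast replicate 1 (0.107) or 2 (0.1075), or adult fibroblast replicate 1 (0.0745) or 2 (0.0969). It was also lost with only the fibroblast groups in the fit (0.0866), over a range from 0.000351 to 0.1075 among all alternatives.

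Postn encodes periostin, which binds collagen I, fibronectin and tenascin C and is a widely used marker of activated cardiac fibroblasts. It stood at 11.17, 10.86 and 10.83 in cardiomyocytes, 12.45, 12.42 and 12.36 in embryonic fibroblasts, and 12.07, 11.34 and 12.04 in adult fibroblasts. The embryonic fibroblast arrays were high and close together (SD 0.05, n = 3), while adult replicate 2 lay well below the other adult arrays, near the cardiomyocytes. Postn was 2.75-fold higher in embryonic fibroblasts than in cardiomyocytes (1.46 ± 0.18, adjusted p = 0.00065) and 1.82-fold higher in adult ones (0.87 ± 0.18, adjusted p = 0.00477). The groups of fibroblasts did not overlap, but their difference missed the threshold (0.59 ± 0.18, adjusted p = 0.0518). It passed without adult fibroblast replicate 1 (0.72, adjusted p = 0.0375) or 3 (0.71, adjusted p = 0.0268). Without adult replicate 2, the one that lay apart, the difference was 0.35 and was not called. Over all alternatives the adjusted p of this difference ran from 0.0236 to 0.247.

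Sparc encodes a small collagen-binding glycoprotein, also called osteonectin, that takes part in the assembly of fibrillar collagen. Cardiomyocytes gave 12.70, 12.63 and 12.59, embryonic fibroblasts 13.06, 13.04 and 12.81, and adult fibroblasts 12.93, 12.81 and 12.82. All 9 arrays lay within 0.47, the narrowest span of the 6 genes, with the cardiomyocytes lowest and both fibroblast groups overlapping. The 1.26-fold difference between embryonic fibroblasts and cardiomyocytes was called (0.33 ± 0.09, adjusted p = 0.0249). This call was lost without cardiomyocyte replicate 2 (0.0782) or 3 (0.0763), or embryonic fibroblast replicate 1 (0.0972) or 2 (0.0983), with a range of adjusted p from 0.00273 to 0.0983 over the alternatives. Adult fibroblasts were 1.16-fold above cardiomyocytes without passing (0.21 ± 0.09, adjusted p = 0.0918). After quantile normalization this difference was 0.42 and passed (adjusted p = 0.00462, in a range from 0.00462 to 0.231), and the difference between the fibroblast groups, 0.12 (95% interval -0.08 to 0.31), turned to -0.06.

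**Figure D1:**
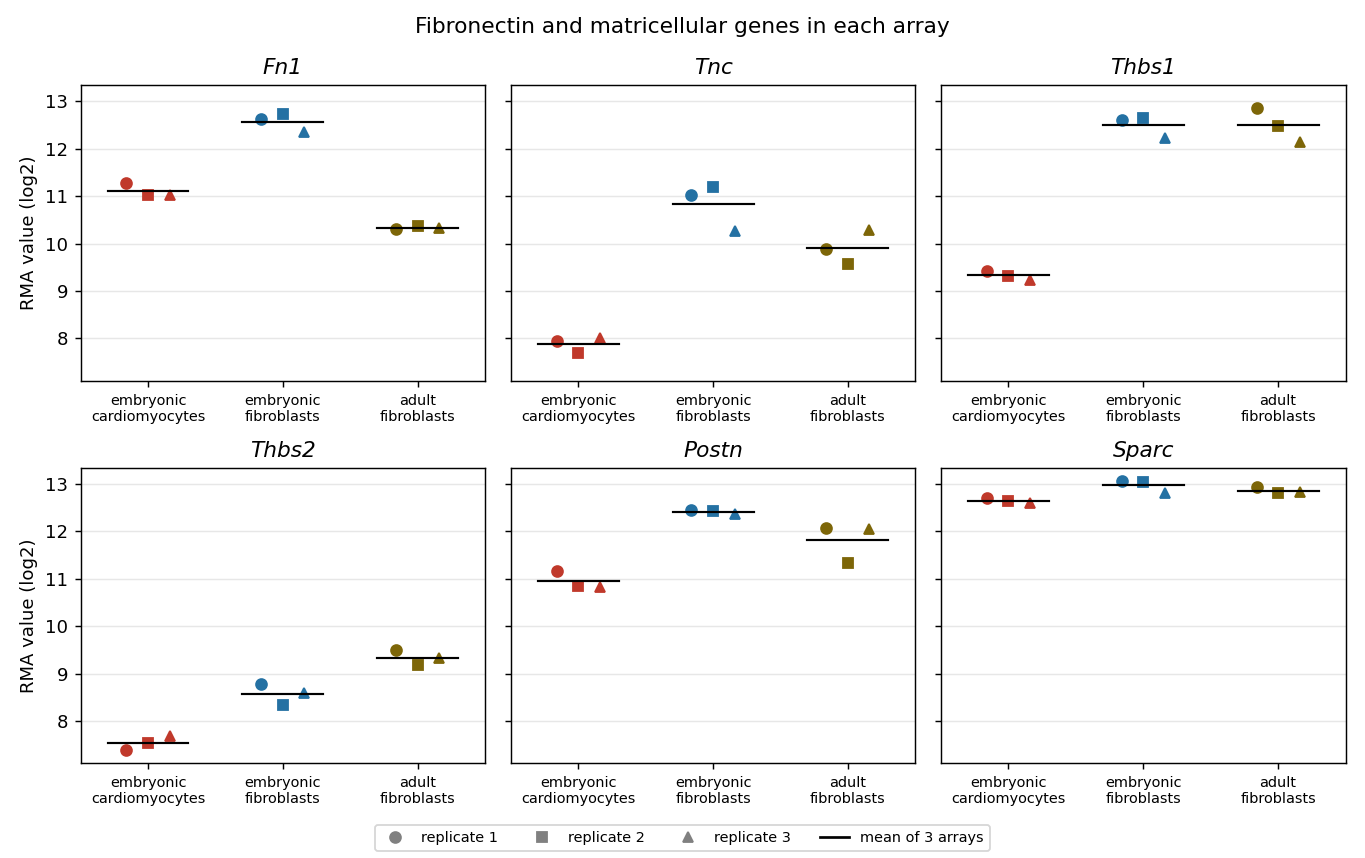
RMA values (log2, vertical axis) of the 6 measured genes in each of the 9 arrays, by group, with symbols for replicates and a line at the mean of 3 arrays. Fn1 was lowest in adult fibroblasts, at 10.31 to 10.37, whereas the cardiomyocytes were lowest for the other 5 genes.

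Taking the comparisons as a whole, the median log2 difference of the 6 genes between embryonic fibroblasts and cardiomyocytes was 1.46, against -0.0003 over all genes. By limma 6 were called higher and 0 lower (0 also at an unadjusted p under 0.05), and the groups did not overlap for any of them, as for 39.1% of all genes. Leaving out single arrays, 5 or 6 were called, Sparc being the gene that was lost. Between the fibroblast groups 2 were called higher and 1 lower in embryonic cells, where 11.2% and 8.34% of all genes were called. The count of higher genes was 1 without cardiomyocyte replicate 1, embryonic fibroblast replicate 1 or 2, or adult fibroblast replicate 2, and 3 without adult fibroblast replicate 3. The median difference of the members was 0.36, against -0.04 over all genes. For 3 of the 6, Fn1, Thbs2 and Postn, these groups did not overlap, as for 33.0% of all genes. Between adult fibroblasts and cardiomyocytes 4 were called higher and 1 lower, where 17.4% and 18.2% of all genes were called. The median was 1.33 against 0.06 over all genes, and the groups did not overlap for 6 of 6, as for 45.9% of all genes.

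**Figure D2:**
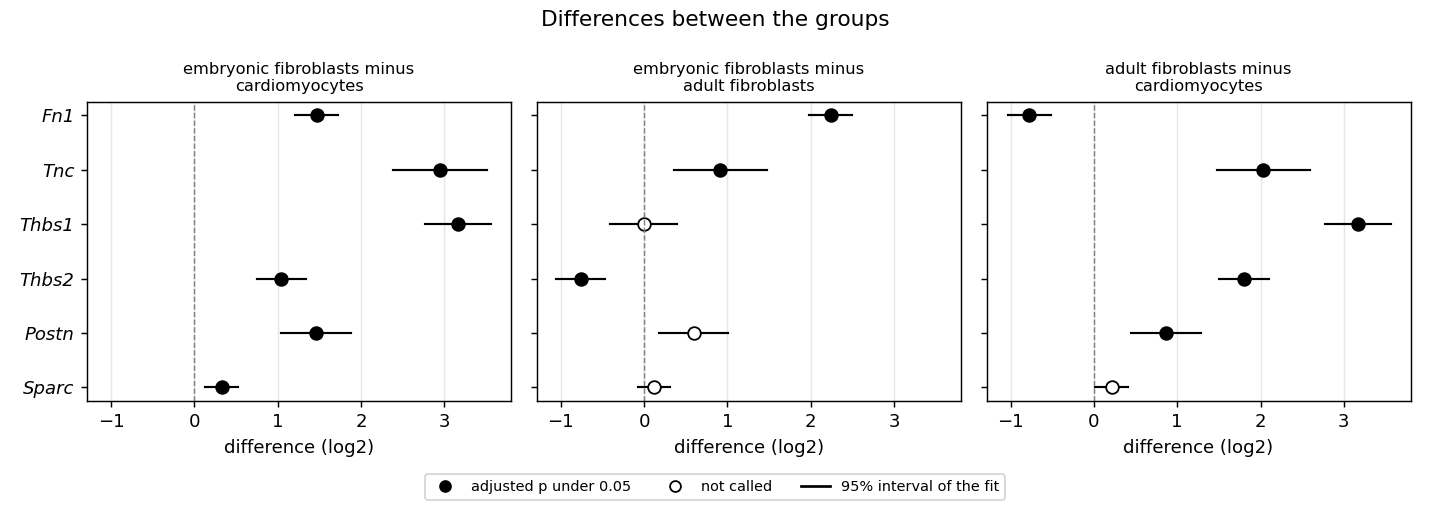
Log2 differences (horizontal axis) of the 6 genes in the 3 comparisons, with the 95% interval of the limma fit. Filled points were called at an adjusted p under 0.05; the interval of Thbs1 between the fibroblast groups runs from -0.40 to 0.39.

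The labels were set beside markers of cell types. Fibroblast markers (8 genes such as Pdgfra, Tcf21 and Dcn) had a summed level of 11.28 to 11.79 in cardiomyocytes, 13.09 to 13.35 in embryonic fibroblasts and 14.75 to 14.87 in adult fibroblasts, on the log2 scale. Fn1 was lowest in adult fibroblasts, where this sum was highest. Within the list 6 of 8 were called lower in embryonic than in adult fibroblasts (8.34% of all genes were). Col1a1 (9.15 against 8.90) and Col1a2 (9.21 against 8.93) were not called. The genes named from the marker lists were chosen after their values were seen. Cardiomyocyte markers (8 genes such as Tnnt2 and Myh6) lay at 15.45 to 15.59 in cardiomyocytes, 14.21 to 14.69 in embryonic fibroblasts and 10.93 to 11.65 in adult ones. Of these 8, 7 were called below the cardiomyocyte level in embryonic fibroblasts (11.1% of all genes were), from 2.03-fold for Tnni3 to 3.64-fold for Actn2. The troponin gene Tnnt2 was the one not called, at 13.38 in embryonic fibroblasts against 13.82 in cardiomyocytes (adjusted p = 0.329 by limma). In adult fibroblasts it was at 9.83. All 8 were called above the adult level in embryonic fibroblasts (11.2% of all genes were). The arrays labelled embryonic fibroblast thus held markers of both cell types. The other groups are not shown to be free of such markers, since the values have no true zero. Fibroblast markers in cardiomyocytes ran from 7.09 (Ddr2) to 9.43 (Dcn). Cardiomyocyte markers in adult fibroblasts ran from 6.99 (Myh6) to 9.83 (Tnnt2). The part of RNA of a second cell type in the levels of the 6 genes was not tested.

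Markers of several other cell types also differed between the groups. Of 10 macrophage markers 6 were higher in embryonic fibroblasts than in cardiomyocytes (10.3% of all genes were), with summed levels of 10.98 to 11.08 in cardiomyocytes, 11.53 to 11.97 in embryonic and 12.35 to 13.22 in adult fibroblasts. Of 8 endothelial markers 8 were higher in embryonic fibroblasts than in cardiomyocytes, at 11.75 to 12.31, 13.25 to 13.74 and 12.37 to 13.62 in the same order. For platelets, which store thrombospondin 1 and SPARC, 2 of the 4 measured markers were higher in this comparison, at 9.49 to 9.78, 10.07 to 11.31 and 10.80 to 11.29. Against cardiomyocytes, adult fibroblasts had 9 macrophage, 4 endothelial and 1 platelet markers higher (17.4% of all genes were). Against adult fibroblasts, embryonic ones had 6 macrophage and 1 platelet markers lower and 2 endothelial markers higher (8.34% and 11.2% of all genes). Epicardial and mesothelial markers lay at 10.94 to 10.97, 11.55 to 11.83 and 10.78 to 11.05, a sum that was highest in embryonic fibroblasts. Of these 8 markers 4 were called above cardiomyocytes and 6 above adult fibroblasts there (10.3% and 11.2% of all genes). Krt19, however, averaged 8.34 in cardiomyocytes against 8.19 in embryonic fibroblasts, and Aldh1a2 9.37 in adult fibroblasts against 9.12. Smooth muscle and pericyte markers lay at 13.24 to 13.34, 12.48 to 12.60 and 11.46 to 12.48, with Acta2 the highest in cardiomyocytes (12.02). Their mean log2 value, at 9.01 to 9.16 in cardiomyocytes and 8.98 to 9.05 in embryonic fibroblasts, overlapped. Of the 8, 2 were called higher and 2 lower in embryonic fibroblasts than in cardiomyocytes (10.3% and 11.1% of all genes). The higher ones were Rgs5 and Pdgfrb, and the lower ones Cnn1 and Des. In adult fibroblasts against cardiomyocytes 3 were higher and 4 lower (17.4% and 18.2% of all genes). Rgs5 was 12.98-fold, Myh11 2.29-fold and Pdgfrb 1.95-fold higher. Cnn1 was 15.91-fold, Acta2 9.69-fold, Des 5.79-fold and Cspg4 1.38-fold lower. The 4 measured red cell markers lay at 12.64 to 13.06, 11.56 to 11.67 and 9.17 to 9.36, a sum led in cardiomyocytes by Hbb-y (12.76), whereas Alas2 and Slc4a1 were not called in any comparison. Their part in the results was not tested. Of the 9 arrays, the third adult fibroblast one was the least like its group (mean Pearson r over all probes 0.970, against 0.981 for each of the other adult arrays). Without it Fn1 differed by 2.24, Tnc by 1.10, Thbs1 by -0.18, Thbs2 by -0.76, Postn by 0.71 and Sparc by 0.10 between embryonic and adult fibroblasts (log2), and the call of Postn was gained.

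**Figure D3:**
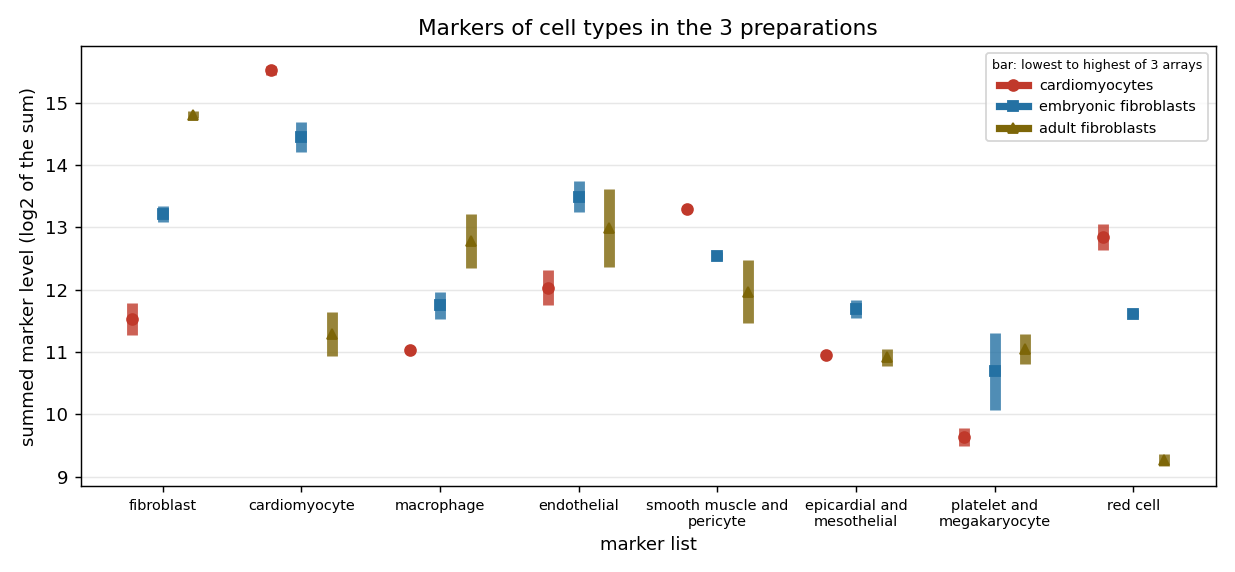
Summed levels of the marker lists (log2 of the sum of linear RMA values, vertical axis) in the 3 groups. Bars run from the lowest to the highest of 3 arrays, and symbols mark the middle of that range; cardiomyocyte markers in embryonic fibroblasts, at 14.21 to 14.69, lie between those of the other groups.

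Against cardiomyocytes, embryonic fibroblasts had 9 of 18 receptor genes of these proteins higher and 2 lower (21.4% of all genes were called in either direction), with a median difference of 0.37 against -0.0003 over all genes. The integrin subunit genes Itgav, of receptors for fibronectin and osteopontin, and Itga8, whose integrin binds fibronectin, tenascin C and osteopontin, rose the most (1.77 ± 0.17 and 1.66 ± 0.25). Cd44, a receptor of hyaluronan and osteopontin, was 1.98-fold higher (0.99 ± 0.10). The lower genes were Cd36, a receptor of thrombospondins and fatty acids (-1.12 ± 0.32), and Cacna2d1, a calcium channel subunit that binds thrombospondins (-0.92 ± 0.21). The count of lower receptors was 1 without cardiomyocyte replicate 1 or 3 or embryonic fibroblast replicate 1, and 0 without cardiomyocyte replicate 2 or embryonic fibroblast replicate 2.

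Between the fibroblast groups 3 receptor genes were higher and 4 lower in embryonic cells (19.5% of all genes were called), and the median was 0.07 against -0.04. Itga8 (1.39), Itga4, of another fibronectin receptor (0.71), and Stab1, an endocytic receptor of SPARC (0.48), were higher. The lower ones were Cd36 (-2.01), Lrp1, an endocytic receptor that takes up thrombospondins (-1.52), Cd47, a thrombospondin 1 receptor (-1.10), and Cd44 (-1.01). Only 1 receptor was called higher without embryonic fibroblast replicate 2 or adult fibroblast replicate 1. Adult fibroblasts had 8 receptors higher and 0 lower than cardiomyocytes by limma (0 lower at an unadjusted p under 0.05; 35.6% of all genes were called), with a median of 0.49 against 0.06. They were led by Lrp1 (2.14), Cd44 (2.0), Itgav (1.71) and Cd47 (1.31). Itgb1, named here as the partner of Itga4 and Itga8, was not called in any of the comparisons, with differences from 0.10 to 0.21.

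**Figure D4:**
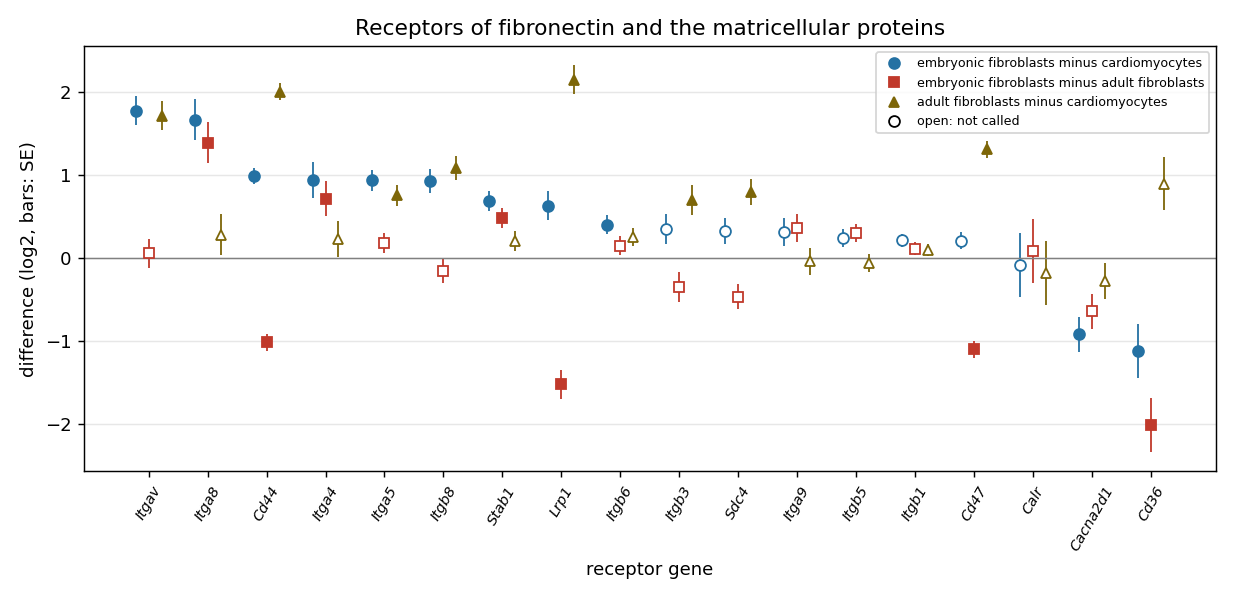
Log2 differences with SE (vertical axis) of the 18 receptor genes in the 3 comparisons, ordered by the difference between embryonic fibroblasts and cardiomyocytes; filled symbols were called. Itgav was called above cardiomyocytes in both fibroblast groups (1.77 and 1.71), and Cd36 was called lower in embryonic fibroblasts against each other group (-1.12 and -2.01).

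The relatives of the members were a fixed list of 29 genes. Some share a family with a member, such as other tenascins and thrombospondins and the SPARC family. Others, such as the CCN genes, fibulins, galectins and vitronectin, are of other families and are counted as relatives here. The counts of relatives cover both kinds. In embryonic fibroblasts against cardiomyocytes 8 were higher and 0 lower by limma (3 lower at an unadjusted p under 0.05; 10.3% of all genes were called higher and 11.1% lower), with a median of 0.19 against -0.0003. Among the called relatives the largest differences were those of Tgfbi, the nearest relative of periostin (1.55 ± 0.20), Sparcl1, a SPARC relative (1.23 ± 0.24), the CCN gene Ccn1 (1.05 ± 0.21) and Fbln2, a fibulin (0.94 ± 0.22). The number of higher relatives was 5 without cardiomyocyte replicate 2, 4 without embryonic fibroblast replicate 1, 5 without embryonic fibroblast replicate 2 and 12 without adult fibroblast replicate 3. With cardiomyocyte replicate 1, adult fibroblast replicate 1 or adult fibroblast replicate 3 left out, 1 was called lower. Thbs3 (0.19 ± 0.10, adjusted p = 0.226) and Thbs4 (-1.38 ± 0.57, adjusted p = 0.125) were not called beside Thbs1 and Thbs2, nor was Tnxb, which encodes tenascin X (0.28 ± 0.11, adjusted p = 0.13), beside Tnc. These 3 were chosen after their values were seen. For Thbs3 and Thbs4, but not for Tnxb, these groups did not overlap, as for 39.1% of all genes. Thbs4 averaged 8.04 in embryonic fibroblasts (SD 0.28) and 9.43 in cardiomyocytes (SD 0.04), 2.61-fold higher in the latter. The fit shares its spread over all groups, and in adult fibroblasts the SD of Thbs4 was 1.45.

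Between the fibroblast groups 2 relatives were higher and 7 lower in embryonic cells (11.2% and 8.34% of all genes), with a median of -0.21 against -0.04. The higher ones were Smoc1 (0.78), of the SPARC family, and Ccn4 (0.45). Of those called lower, the largest decreases were in Smoc2 (-2.64), Sparcl1 (-1.61), Ccn3 (-1.20) and Tnxb (-1.11). The count of higher relatives was 1 without cardiomyocyte replicate 1, 2 or 3, embryonic fibroblast replicate 1 or 2, or adult fibroblast replicate 2 or 3, and it was 3 without adult fibroblast replicate 1. That of lower ones was 11 without adult fibroblast replicate 3. In adult fibroblasts against cardiomyocytes 13 relatives were higher and 1 lower (17.4% and 18.2% of all genes), with a median of 0.25 against 0.06, led by Smoc2 (3.02), Sparcl1 (2.85), Ccn3 (1.63) and Fbln1, a fibulin (1.39). The lower one was Ccn4 (-0.43), and 2 were lower without cardiomyocyte replicate 1 or adult fibroblast replicate 1.

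Of the genes of TGF-beta, a known inducer of several members and a growth factor that thrombospondin 1 activates, 10 were measured. In embryonic fibroblasts 5 of 10 were above cardiomyocytes and 0 below by limma (0 at an unadjusted p under 0.05; 10.3% and 11.1% of all genes), with a median of 0.34 against -0.0003 over all genes. They were Ltbp4, of a latent TGF-beta binding protein (1.05), Tgfb1 (0.94), the receptor genes Tgfbr1 (0.46) and Tgfbr2 (0.37), and Tgfb3 (0.42). The count was 2 without cardiomyocyte replicate 2 or embryonic fibroblast replicate 1 or 2, and 3 without cardiomyocyte replicate 3. Adult fibroblasts had 8 of 10 above cardiomyocytes and 0 below (0 at an unadjusted p under 0.05; 17.4% and 18.2% of all genes), with a median of 0.54 against 0.06, led by Ltbp4 (2.24), Tgfb1 (1.00), Tgfb2 (0.93) and Tgfbr2 (0.69). Between the fibroblast groups 0 were higher in embryonic cells (1 at an unadjusted p under 0.05) and 4 were lower, where 11.2% and 8.34% of all genes were called, namely Ltbp4 (-1.19), Tgfb2 (-0.61), Tgfbr3 (-0.55) and Tgfbr2 (-0.32). The count of lower genes was 1 without embryonic fibroblast replicate 2 or adult fibroblast replicate 1, and 2 without embryonic fibroblast replicate 1 or 3 or adult fibroblast replicate 2.

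The genes most like each member were those with the smallest root mean square difference over the 9 arrays, after each gene was centred on its own mean. For Fn1 these were Hapln1, of a hyaluronan link protein (0.18 log2 units), Ptn, the growth factor pleiotrophin (0.19), and Cdh11, a mesenchymal cadherin (0.22), while Fn1 itself varied by 0.94 around its mean. All 3 were highest in embryonic fibroblasts and lowest in adult ones; Ptn averaged 10.52 in cardiomyocytes, 12.25 in embryonic and 9.68 in adult fibroblasts. The nearest member, Postn, was at a distance of 0.81 from Fn1. For Thbs1 the nearest genes were Il1rl2 (0.28), Sgms2 (0.30) and Emp1 (0.32), and for Tnc they were Dnah12 (0.30), Olr1 (0.35) and Zswim6 (0.41). Thbs1 and Tnc lay 0.60 from each other, each being the other's nearest member.

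Thbs2 was closest to the elastase gene Mmp12 (0.16), to Rrs1 (0.16) and to Cd44 (0.17), which is also among the receptors above. Cd44 averaged 9.30 in cardiomyocytes, 10.29 in embryonic and 11.30 in adult fibroblasts. Postn was closest to Gli3, a transcription factor of hedgehog signalling (0.17), Plekhh2 (0.18) and the collagen gene Col5a2 (0.19), which averaged 7.92, 9.24 and 8.65 in the same order. For Sparc, which varied by only 0.16 around its own mean, the distances were smaller still, at 0.04 for Trp53bp2, 0.05 for Calu and 0.06 for Kif17. These distances describe 9 arrays that share their groups.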

How the data were processed

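The authors processed the arrays with RMA (version not given), per the submitters' processing notes. The deposited table gives a log2 value per probe and array, the log base being inferred from the range of 2.70 to 14.20. The genome build, and whether normalization took in all arrays together, are not given in the labels. RNA was extracted with Trizol and labelled with biotin, per the labels' protocols. Of 28767 probes, 21776 had a single gene symbol in the platform annotation, which left 19933 genes; 1618 probes had several symbols and 5373 none.

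The log2 values of all 9 arrays entered a linear model in limma 3.58.1 under R 4.3.3 (lmFit, eBayes; a mean per group; no filter on dim genes; median of 9.21 degrees of freedom), with two-sided tests and Benjamini-Hochberg adjustment over all genes. Depth does not apply to arrays, and their number limits the precision. The script was tested on simulated data. The alternatives tried were a block for the replicate number, other scalings, probe rules, array weights, an intensity trend, a filter on dim genes, the compared groups alone, and leaving out arrays. Motifs were searched by exact match with Python 3.11.15, and figures drawn with matplotlib 3.10.9.

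The members and lists were chosen with earlier results of these data known. Named genes are the members, up to 4 called genes with the largest difference per list and comparison, any gene covered by a count of 5 or fewer, and the 3 genes most like each member, predicted loci left out.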

Additional observations from a re-analysis of the deposited data

How the results depend on the processing

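Of the 18 differences of the 6 genes, 12 kept their direction and their side of the threshold under all 19 alternatives, among them all those of Fn1 and Thbs2. Not every alternative could move a difference. Each measured gene had a single probe, so the probe rules left its values as they were. The replicate block, the intensity trend, the filter on dim genes and the compared groups alone could alter the test but not the difference. Whether the same replicate numbers pair the arrays could not be settled with 3 arrays per group. The correlation of same-numbered deviations ran from -0.195 to -0.0169 for the embryonic groups and from -0.0239 to 0.198 for the fibroblasts. For the remaining comparison it ran from -0.0509 to 0.168. In the same order 0, 2 and 1 of 3 arrays were closest to their own number. With the replicate number as a block, Tnc between the fibroblast groups (0.91) had an adjusted p of 0.0527 and Postn (0.59) one of 0.0363. Among the members and their counts the block changed no other call.

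Postn between the fibroblast groups was also called with dim genes left out (0.59, adjusted p = 0.0424) and with array weights (0.60, 0.0236), and Sparc between adult fibroblasts and cardiomyocytes with quantile normalization (0.42) and array weights (0.24). Quantile normalization turned Sparc between the fibroblast groups to -0.055. Tnc between the fibroblast groups (0.91) was not called with only these groups in the fit. The cause was not tested. With single arrays left out, the difference between the fibroblast groups ran from 0.73 to 1.19 for Tnc, from 0.35 to 0.72 for Postn and from -0.18 to 0.17 for Thbs1, and that of Sparc between embryonic fibroblasts and cardiomyocytes from 0.28 to 0.41. Without replicate 3 of both fibroblast groups, Postn between the fibroblast groups (0.73) and Sparc between adult fibroblasts and cardiomyocytes (0.23) were called, and 13 higher and 1 lower relatives in the first comparison and 1 lower receptor in the third.

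Array weights gave 3103 higher and 3362 lower genes between the embryonic groups (2054 and 2212 without), 2519 lower between the fibroblast groups (1662 without), 13 higher and 2 lower relatives in the first comparison, 11 lower in the second and 2 lower in the third, and 1 lower receptor in the third. With only the compared groups fitted, 1 relative was lower in the first comparison, and in the second 1 member, 1 relative and 1 receptor were higher and 1 TGF-beta gene was lower. Quantile normalization gave 2 lower relatives, and the probe of largest variance 1 lower receptor, in the third. Leaving out single arrays, genes lower in the first comparison ran from 1452 to 2830, higher relatives from 4 to 12 and lower ones from 0 to 1, lower receptors from 0 to 2 and higher TGF-beta genes from 2 to 5. In the second, higher members ran from 1 to 3, higher relatives from 1 to 3, lower ones from 7 to 11, higher receptors from 1 to 3 and lower TGF-beta genes from 1 to 5. In the third, lower relatives ran from 1 to 2. Of the list genes named, differences that were called stayed called in 984 of 1064 cases.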
